A study of Mus musculus with 18 samples.

Results

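Transcripts of the adrenal gland were followed through kidney RNA sequencing libraries. The genes are Star, Cyp11a1, Cyp21a1, Cyp11b1 and Mc2r of the adrenal cortex and Th, Dbh, Pnmt, Chga and Chgb of the adrenal medulla. They were found by symbol, and 10 of 10 are among the 19545 rows of the deposited table. The set was selected on its levels in these libraries, so those levels are a description and carry no test.

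The study asked what FMT (faecal microbiota transplantation) does to a kidney damaged by a high fat diet and STZ (streptozotocin, a toxin of pancreatic beta cells). All 18 samples are kidney of ICR mice, an outbred stock, aged 10 weeks, in 6 groups of 3. Control mice are labelled without any treatment. Mice of the AOS group received 10 mg/kg of an agent given only by that abbreviation. The HS group had the high fat diet and STZ, HS_AOS had both of these plus AOS at 10 mg/kg, and HS_AOS_FMT and HS_control_FMT had both plus an FMT labelled AOS10mg/kg or control. Libraries are named by group and replicate, as in HS 3. Nothing states that each replicate is its own mouse, so a p-value reflects the spread among these samples, which may be technical. Levels are in FPKM, fragments scaled to transcript length and library size. No read counts are given, so the depth is unknown and single values carry no interval.

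The adrenal gland lies at the upper pole of the kidney. Its cortex turns cholesterol into corticosterone and aldosterone: the Star protein carries cholesterol into mitochondria, and a chain of P450 enzymes and a dehydrogenase completes the steroid under the control of pituitary ACTH. Its medulla consists of chromaffin cells, which make noradrenaline and adrenaline from tyrosine and store them in granules with chromogranins.

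The labelled tissue was checked first. The proximal tubule phosphate transporter Slc34a1 lay between 1762 FPKM in control 3 and 3041 in HS_AOS 2, and the thick limb protein Umod between 218 and 1032. Defining kidney markers were therefore present in all 18 libraries. Control 3 stood apart: its median correlation with the other libraries, across genes, was 0.978, against 0.987 to 0.992 for the rest. It also had the lowest Slc34a1 and, for the androgen-regulated tubule gene Kap, 15798 FPKM against 66020 or more. Results that rest on control 3 are given beside those of the other libraries.

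Transcripts of both adrenal layers were high in control 3, HS 3 and HS_AOS_FMT 2 and lower in HS_AOS_FMT 3. In HS_AOS_FMT 1 they were low, with 7 of the 10 genes above all the remaining libraries. The remaining 13 libraries had nearly none beyond a constant low level of Star. Control 3 had the highest cortex levels of the 18 libraries, with medulla levels that were low relative to its cortex, whereas HS 3 had the highest medulla levels. The 3 high libraries came from 3 different groups. In bulk samples, fewer cells of a type and less RNA per cell cannot be told apart.

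Star, the carrier that opens steroid synthesis, was at 125 FPKM in control 3, against 0.75 and 1.00 in controls 1 and 2. It was at 46.6 in HS 3, against 1.01 and 0.88 in HS 1 and 2. The 3 HS_AOS_FMT libraries had 1.63, 53.3 and 9.74. The other 9 libraries lay between 0.71 and 1.17, so Star was listed above 0 in all 18 libraries and its level in most of them was close to 1 FPKM. Cyp11a1 cleaves the side chain of cholesterol and makes pregnenolone, the first steroid. It was at 0.24, 0.13 and 106 FPKM in the controls, 0.18, 0.05 and 86.0 in HS, and 1.09, 63.8 and 10.6 in HS_AOS_FMT 1, 2 and 3. It did not exceed 0.21 FPKM in the AOS, HS_AOS and HS_control_FMT libraries.

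Cyp21a1, the 21-hydroxylase, was the highest of the 10 genes in control 3, HS 3 and HS_AOS_FMT 2 and 3, and Star was the highest in the other libraries. Cyp21a1 was at 0.04, 0.11 and 247 FPKM in the controls and at 0.24, 0.14 and 148 in HS. In HS_AOS_FMT 1, 2 and 3 it was at 1.58, 98.0 and 15.6, and no other library passed 0.32. Ranked among the genes above 0 in a library, it was 415th of 17270 in control 3, 664th of 16514 in HS 3, 931st of 16447 in HS_AOS_FMT 2 and 4518th of 16242 in HS_AOS_FMT 3. Cyp11b1, the 11-beta-hydroxylase that completes corticosterone, was listed at 0 in controls 1 and 2 and at 118 FPKM in control 3. It was at 0.13, 0.14 and 38.3 in HS and at 0.59, 38.2 and 6.11 in HS_AOS_FMT. It was listed at 0.15 or less in the other 9 libraries, 3 of which were at 0. Mc2r, the ACTH receptor, was the lowest cortex gene in the 5 libraries with adrenal transcripts. It was at 0.42, 0.09 and 18.4 FPKM in the controls, 0.24, 0.28 and 6.09 in HS, and 0.14, 3.55 and 0.71 in HS_AOS_FMT. Its 0.14 in HS_AOS_FMT 1 lay within the 0 to 0.42 of the 13 low libraries.

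**Figure D1:**
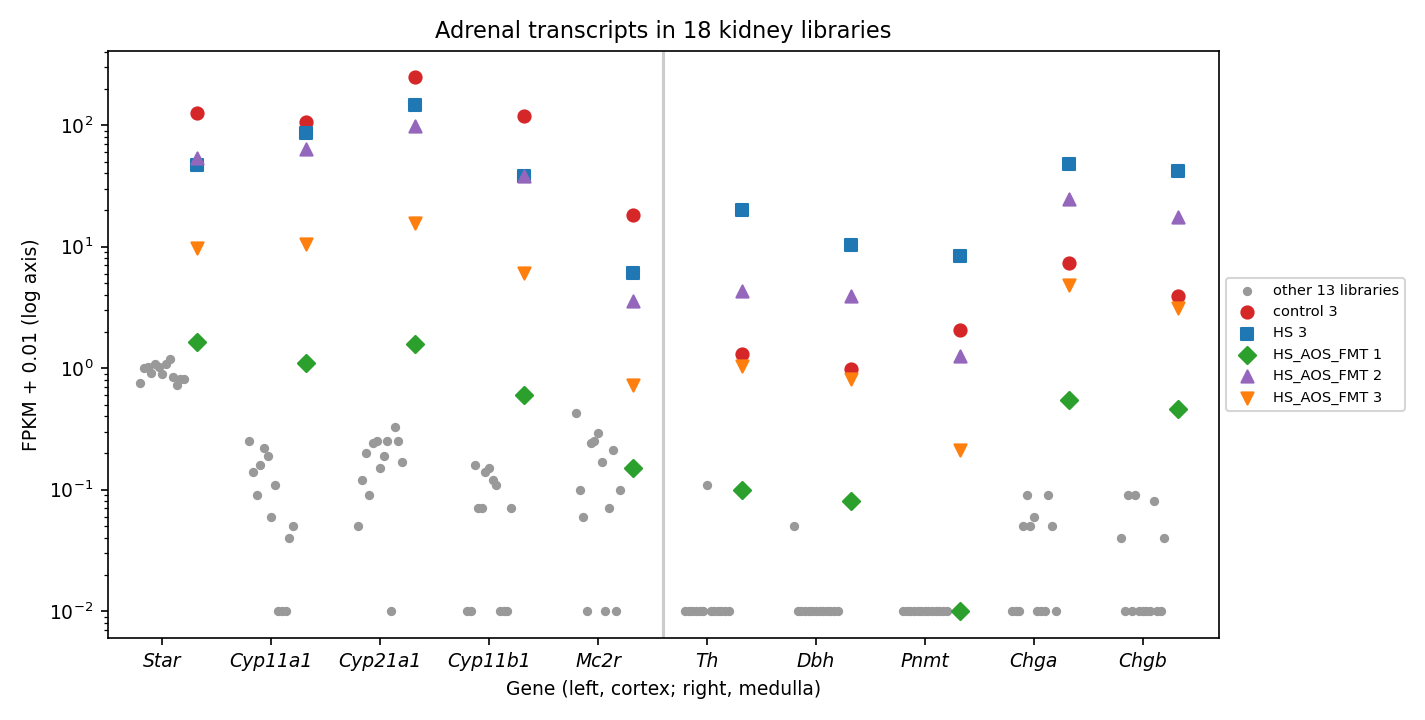
Level of each of the 10 adrenal genes (x axis, cortex left and medulla right) in each of 18 kidney libraries, as FPKM + 0.01 on a log axis, so that a gene listed at 0 sits at 0.01; coloured points are single libraries and grey points the other 13 libraries. Cyp21a1 reached 247 FPKM in control 3 and 148 in HS 3, and the medulla genes were highest in HS 3, with Chga at 47.7 FPKM.

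In the medulla the order of the libraries differed. Th, tyrosine hydroxylase, is the rate-limiting enzyme of catecholamine synthesis. It was at 1.30 FPKM in control 3, 20.2 in HS 3, and 0.09, 4.27 and 1.04 in HS_AOS_FMT 1, 2 and 3. It was at 0.10 in HS 2 and listed at 0 in the other 12 libraries. Dbh, which turns dopamine into noradrenaline, was at 0.97 FPKM in control 3, 10.2 in HS 3 and 0.07, 3.95 and 0.81 in HS_AOS_FMT, with 0.04 in control 1 and 0 in the other 12. Pnmt, which methylates noradrenaline to adrenaline, was at 2.04 FPKM in control 3, 8.32 in HS 3 and 0, 1.25 and 0.20 in HS_AOS_FMT, and listed at 0 in every other library. For all 3 enzymes HS 3 was the highest library. Th and Dbh were next in HS_AOS_FMT 2, whereas Pnmt was next in control 3.

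The granule proteins were the most abundant medulla transcripts in the 5 libraries with adrenal genes. Chga, chromogranin A, was at 0, 0 and 7.31 FPKM in the controls, 0.04, 0.05 and 47.7 in HS, and 0.54, 24.5 and 4.83 in HS_AOS_FMT. Chgb, chromogranin B, was at 0.03, 0 and 3.89 in the controls, 0, 0 and 41.7 in HS, and 0.45, 17.5 and 3.13 in HS_AOS_FMT. Neither passed 0.08 FPKM in the AOS, HS_AOS and HS_control_FMT libraries. In control and HS replicate 3 alone was high, and HS_AOS_FMT held a high, a middle and a low library. In both genes every HS_AOS_FMT library lay above all AOS, HS_AOS and HS_control_FMT libraries, while HS_AOS_FMT overlapped control and HS. The lowest of these HS_AOS_FMT levels, 0.54 and 0.45 FPKM in HS_AOS_FMT 1, are near the floor. The share of all genes that separate in this way was not computed, and the genes were selected on these levels, so nothing is read from it.

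The promoters of 3 medulla genes are shown because each holds a short motif, the cAMP response element or a variant of it. Whether the motif bears on their levels was not tested. RefSeq promoters (GRCm38.p6) were matched by symbol for 5 of the 10 genes: Th, Dbh, Chga, Chgb and Cyp11a1, which has 2 listed starts. The 250 bases before each start were searched on both strands for TGACGTCA, for its variant TGACGTAA, and for AAGGTCA, the half-site of the steroidogenic factor Nr5a1, which overlaps neither. The 100 bases before the start are printed 5′ to 3′, with the match in capitals: Th at chr7:142899996-142900095 on the minus strand, Chgb at chr2:132781542-132781641 and Chga at chr12:102554841-102554940, both on the plus strand.
Th: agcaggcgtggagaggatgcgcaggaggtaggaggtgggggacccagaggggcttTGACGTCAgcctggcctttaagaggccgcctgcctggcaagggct
Chgb: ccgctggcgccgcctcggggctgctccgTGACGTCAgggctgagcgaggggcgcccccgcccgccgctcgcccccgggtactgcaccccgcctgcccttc
Chga: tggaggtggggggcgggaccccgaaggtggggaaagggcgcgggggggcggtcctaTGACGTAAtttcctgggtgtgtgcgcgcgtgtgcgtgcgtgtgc
The match lies at -45 to -38 in Th, at -72 to -65 in Chgb and at -44 to -37 in Chga, counted from the start. Of all 32851 promoters of the same length, 1.55% hold TGACGTCA, 0.447% TGACGTAA and 4.08% AAGGTCA. The windows of Dbh and Cyp11a1 hold none of these letters. Such a match is a description of the sequence and not a measured site.

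The sums of the 5 cortex and the 5 medulla genes put both layers side by side. In control 3 the cortex sum was 614 FPKM and the medulla sum 15.5, a ratio of 39.6. In HS 3 the sums were 325 and 128, a ratio of 2.54. In HS_AOS_FMT 1, 2 and 3 the cortex sums were 5.03, 257 and 42.8 and the medulla sums 1.15, 51.5 and 10.0, with ratios of 4.37, 4.99 and 4.27. By this definition the 3 HS_AOS_FMT libraries had ratios within 4.27 to 4.99 while their cortex sums ran from 5.03 to 257. Other definitions spread them more widely. As geometric means of FPKM + 0.1 the ratios were 3.47, 5.39 and 4.41 in HS_AOS_FMT 1, 2 and 3. With further cortex and medulla genes added they were 3.15, 5.72 and 4.47. Control 3 lay above and HS 3 below these ratios. Each ratio comes from 1 library and has no replicate, so these differences have no test. No ratio was formed under a medulla sum of 1 FPKM. The 13 libraries below it had cortex sums of 0.9 to 1.81 (median 1.45) and medulla sums of 0 to 0.16 (median 0.04), and in 3 of them all 5 medulla genes were listed at 0. Star made up 51.7% to 93.3% of the cortex sum there. With the catecholamine enzymes alone as the medulla sum the ratio was 142 in control 3 and 8.38 in HS 3.

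**Figure D2:**
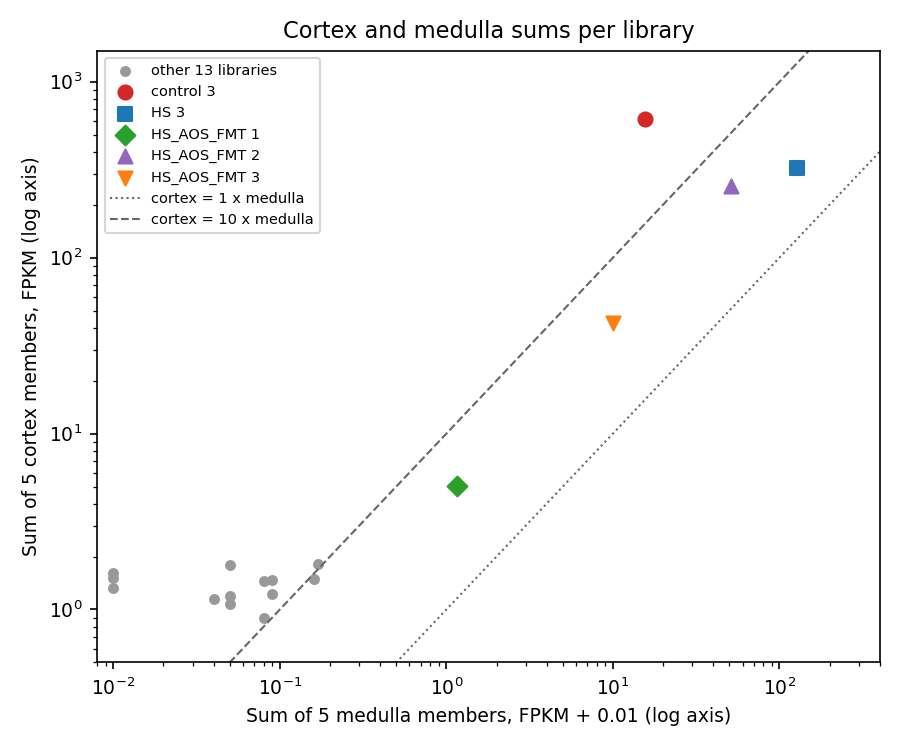
Sum of the 5 cortex genes (y axis, FPKM, log axis) against the sum of the 5 medulla genes (x axis, FPKM + 0.01, log axis), 1 point per library, with lines at 1 and 10 times the medulla sum. Control 3, at 614 and 15.5 FPKM, lies above the upper line, HS 3, at 325 and 128, lies between the lines with the 3 HS_AOS_FMT libraries, and the other 13 libraries have cortex sums of 0.9 to 1.81.

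The difference between control 3 and HS 3 ran through all 10 genes. Relative to HS 3, the 5 cortex genes in control 3 stood at 1.23-fold (Cyp11a1) to 3.08-fold (Cyp11b1), with a median of 2.68. The 5 medulla genes stood at 0.0644-fold (Th) to 0.245-fold (Pnmt), with a median of 0.0948. None of these 5 cortex genes was lower and none of these 5 medulla genes was higher in control 3. Other adrenal genes did not all follow: Cyp11b2 and Akr1b7 of the cortex were lower in control 3 than in HS 3. In HS_AOS_FMT 2, the 5 cortex genes were at 0.583-fold to 1.14-fold and the 5 medulla genes at 0.150-fold to 0.514-fold of HS 3. HS_AOS_FMT 3 followed HS_AOS_FMT 2 at an almost even fraction, 0.159-fold to 0.2-fold for the cortex genes and 0.16-fold to 0.244-fold for the medulla genes.

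**Figure D3:**
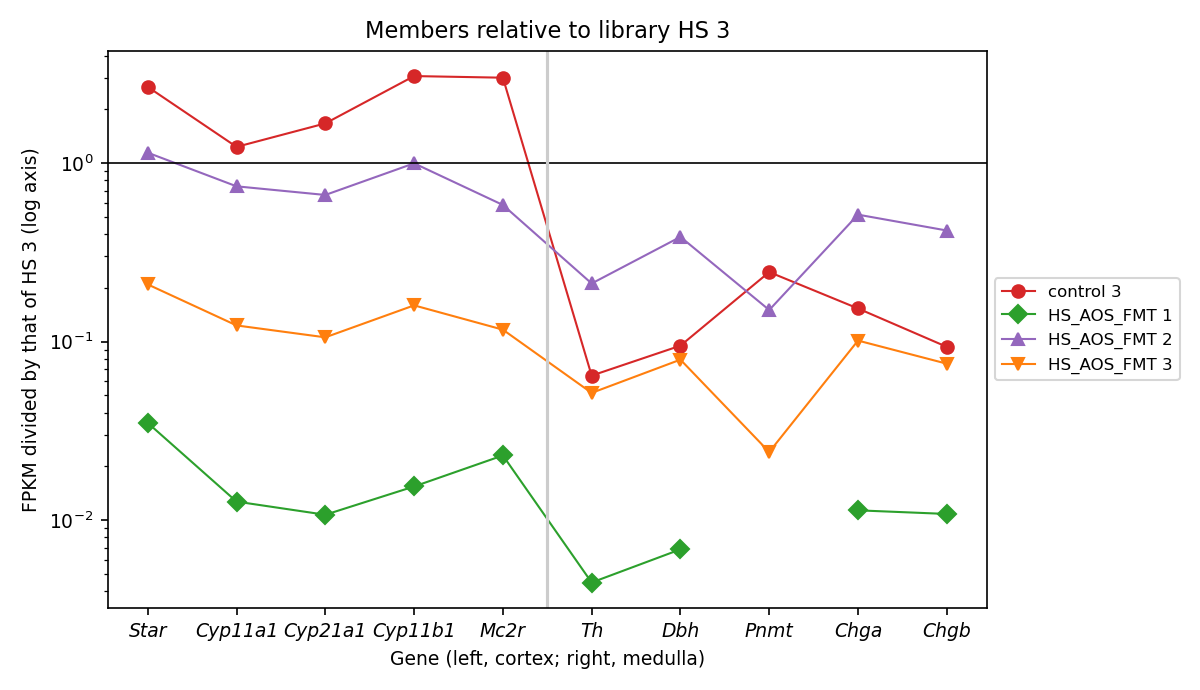
FPKM of each of the 10 adrenal genes divided by its FPKM in HS 3 (y axis, log axis), for the 4 other libraries with a medulla sum of at least 1 FPKM; Pnmt, listed at 0 in HS_AOS_FMT 1, has no point there. Control 3 lies at 1.23 to 3.08 over the cortex genes and at 0.0644 to 0.245 over the medulla genes.

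Proportions within the cortex also differed among libraries. Cyp11b1 relative to Cyp11a1, on the FPKM scale, was 1.11 in control 3, 0.445 in HS 3 and 0.541, 0.599 and 0.577 in HS_AOS_FMT 1, 2 and 3. Cyp21a1 relative to Cyp11a1 was 2.33 in control 3, 1.72 in HS 3 and 1.45, 1.54 and 1.47 in HS_AOS_FMT. Star relative to Cyp11a1 was 1.17, 0.542, 1.495, 0.836 and 0.920 in the same order. Relative to Cyp11a1, both late enzymes were highest in control 3. Star took 32.4% of the cortex sum in HS_AOS_FMT 1, where it was the highest cortex gene. Within the medulla, Pnmt relative to Th was 1.57 in control 3 and 0.412 in HS 3, while HS_AOS_FMT 2 and 3 had 0.293 and 0.192. Chga relative to Chgb varied less, from 1.15 in HS 3 to 1.88 in control 3.

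Of the 10 genes, 10 were above every one of the 13 low libraries in control 3, HS 3, HS_AOS_FMT 2 and HS_AOS_FMT 3, and 7 were in HS_AOS_FMT 1. The exceptions there were Mc2r, Th and Pnmt. The 13 low libraries were set apart by the medulla sum of these same genes, so the counts follow in part from that choice. The share over all genes was not computed, and nothing is read from the counts.

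Other genes of the adrenal, from lists of cortex and medulla functions, followed in part. Hsd3b1, the dehydrogenase between Cyp11a1 and Cyp21a1, was at 297 FPKM in control 3, 129 in HS 3 and 2.39, 105 and 17.97 in HS_AOS_FMT 1, 2 and 3, and at 0.05 to 1.04 elsewhere. Nr5a1, the steroidogenic factor that defines adrenal cortex and gonads, was at 7.86, 2.98, 0.08, 3.52 and 0.52 in the same order and at 0.03 or less elsewhere. Cyp11b2, the aldosterone synthase of the outer zone, was at 3.45, 5.08, 0, 2.86 and 0.30, and at 0.05 or less elsewhere. Unlike Cyp11b1, Cyp11b2 was higher in HS 3 than in control 3. Akr1b7, a reductase of the cortex under ACTH control, was also higher in HS 3, at 93.9 FPKM, than in control 3, at 59.2, and lay between 0.53 and 2.86 in the 13 low libraries. Of the 25 other cortex genes, 13 had control 3, HS 3 and HS_AOS_FMT 2 as their 3 highest libraries, and 14 had a median of at least 1 FPKM over all libraries, so the kidney samples express them in general. Scarb1, the lipoprotein receptor that supplies cholesterol, is one of these, at 44.1 FPKM in control 3 and 3.19 to 7.84 in the 13 low libraries.

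Of the 28 other medulla genes, 10 had the same 3 highest libraries, and 8 had a median of at least 1 FPKM. Over all 13004 rows that reached 1 FPKM in some library the share was 1.56%, or 203 rows. Scg2, secretogranin II, was at 2.37 FPKM in control 3, 9.4 in HS 3 and 0.19, 5.33 and 0.89 in HS_AOS_FMT, and at 0.1 or less elsewhere. Resp18, an endocrine granule protein, was at 1.01, 7.19, 0.14, 3.61 and 0.40 and listed at 0 in the other 13 libraries. Npy, a peptide stored with catecholamines, reached 83.3 FPKM in HS 3 against 6.12 in control 3, but was also at 27.0 in HS_AOS 1 and 23.4 in HS_control_FMT 1, where Chga was listed at 0 and 0.08. Ddc, the decarboxylase after Th, lay between 21.6 and 47.0 FPKM in all libraries and did not mark the high ones.

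Over the 18 libraries and 12224 genes, the genes whose log2(FPKM + 1) was most like the mean of the cortex genes were Akr1cl (Pearson r 0.998), Hsd3b1 (0.994), Acsbg1 (0.988), Nr5a1 (0.982), Mgarp (0.981), Akr1b7 (0.966), Cyp11b2 (0.963) and Bcan (0.960). Those most like the medulla mean were Scg2 (0.993), Resp18 (0.990), Dlk1 (0.986), Cited1 (0.971), Hist2h2aa2 (0.955), Cyp11b2 (0.946), Prss35 (0.946) and Gal (0.934). Hist2h2aa2 has near-identical copies, so its reads are uncertain. Among the members, r was 0.936 to 0.999 within the cortex, 0.907 to 0.995 within the medulla and 0.740 to 0.959 between them. These values rest on the few high libraries, which the points share, and are given with no test. The gene leading the first list, Akr1cl, was at 37.7 FPKM in control 3 and 0.07 or less in the 13 low libraries.

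Tests between the groups covered 12385 genes, those with at least 1 FPKM in at least 3 libraries. Of the 10 adrenal genes 9 were tested, and Dbh was not, with 2 libraries at or above 1 FPKM. The selection used these levels, so nothing is read from the counts. With limma, 0 of the 9 passed an adjusted p of 0.05, and 0 had an unadjusted p under 0.05, in each of 6 comparisons. Over all genes, 0.0646% passed in HS against control, 0.0646% in AOS against control, 2.3% in HS_AOS against HS, 0.977% in HS_AOS_FMT against HS, 0.751% in HS_control_FMT against HS and 3.99% in HS_AOS_FMT against HS_control_FMT. At an unadjusted p under 0.05 the shares over all genes were 6.63%, 7.28%, 20.3%, 18.1%, 15.2% and 19.8% in the same order. Several of these comparisons share the control or the HS samples, HS 3 and control 3 included.

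The median log2 difference of the 9 genes was -0.15 in HS against control, beside 0.00 over all genes, and -1.51 in AOS against control, beside -0.09. Against HS it was -1.77 in HS_AOS (all genes 0.01), 0.70 in HS_AOS_FMT (0.00) and -1.79 in HS_control_FMT (-0.08). It was 2.56 in HS_AOS_FMT against HS_control_FMT, beside 0.07, which is the largest of these medians. The groups with a high library had a wide spread. Group means of Cyp11b1 were 39.3 ± 68.0 FPKM for control, 12.9 ± 22.0 for HS and 15.0 ± 20.3 for HS_AOS_FMT (SD, n = 3), and those of Chga 2.44 ± 4.22, 15.9 ± 27.5 and 9.97 ± 12.8. Each of these SDs exceeds its mean, and these 3 groups did not differ beyond it. In the other groups both genes were low with little spread: Cyp11b1 was at 0.09 ± 0.052 FPKM in AOS, 0.07 ± 0.061 in HS_AOS and 0.02 ± 0.035 in HS_control_FMT, and Chga at 0.04 ± 0.04 in AOS and HS_control_FMT and at 0 in each HS_AOS library. In HS_AOS_FMT against HS_control_FMT the smallest limma adjusted p of the 9 genes was 0.288.

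The other adrenal genes were tested in the same model. Of 20 tested cortex genes and 12 tested medulla genes, 0 passed in 5 of the 6 comparisons, with 0 to 3 cortex genes and 0 or 1 medulla genes at an unadjusted p under 0.05. In HS_AOS against HS, 1 cortex gene and 0 medulla genes rose and 0 of either fell, where 2.3% of all genes passed. The 1 was Dab2, an endocytic adaptor that the outer cortex shares with the proximal tubule, at 217 ± 20.6 FPKM against 162 ± 14.1 (SD, n = 3, limma log2 0.42, SE 0.10, adjusted p = 0.0495). It was not called in 9 of 12 alternatives (adjusted p 0.0213 to 0.194), among them those without HS 1, 2 or 3 or HS_AOS 2 or 3.

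Kidney receptors, clearance enzymes and target genes of adrenal hormones were a separate list of 20 genes, 18 of them tested. Of these 18 genes, 3 rose and 0 fell in HS_control_FMT against HS, where 0.751% of all genes passed. Zbtb16, a glucocorticoid-induced transcription factor, was at 4.6, 3.12 and 1.95 FPKM in HS_control_FMT and at 0.33, 0.24 and 0.32 in HS (limma log2 1.66, SE 0.23, adjusted p = 0.00343). Fkbp5, a co-chaperone of the glucocorticoid receptor that glucocorticoids induce, was at 44.7 ± 8.78 and 22.6 ± 3.66 FPKM (SD, n = 3, limma adjusted p = 0.0187). The groups did not overlap for either gene, but the share of all genes without overlap was not computed. In this comparison 15.2% of all genes had an unadjusted limma p under 0.05. Adra2b, an alpha-2 adrenergic receptor, was at 42.8 ± 3.40 and 25.1 ± 0.405 FPKM (limma adjusted p = 0.0246). In HS_AOS_FMT against HS_control_FMT, 1 of the 18 rose and 2 fell, where 3.99% of all genes passed. Zbtb16 fell (0.523 ± 0.287 FPKM against 3.22 ± 1.33, limma adjusted p = 0.00555), and so did Fkbp5 (limma adjusted p = 0.0489). Nr3c1, the glucocorticoid receptor, rose (21.9 ± 1.34 against 15.2 ± 1.47, limma adjusted p = 0.0190). Both comparisons share the HS_control_FMT samples, in which the cortex sum was 1.07 to 1.23 FPKM. In control 3, with the highest cortex sum, the 7 hormone response genes summed to 249 FPKM, the highest of the 18 libraries, against 129 and 117 in controls 1 and 2. The other libraries with high adrenal genes did not stand out in the same way. This sum was 125 in HS 3, against 130 and 138 in HS 1 and 2, and 145 in HS_AOS_FMT 2. In HS_control_FMT, with almost no adrenal transcripts, it was 162 to 202. A relation between the 2 sums was not tested. Of the 7 genes Sgk1 (63.4), Per1 (19.0), Scnn1a (94.5) and Scnn1g (22.6) were highest in control 3 of all libraries. Control 3 also had the highest sums of the distal (720 FPKM) and principal (314) kidney lists, whose part in these levels was not tested. Zbtb16 was at 1.16, against 0.5 and 0.28 in controls 1 and 2, and Fkbp5 at 23.7, against 34.5 and 25.2. In the other 4 comparisons 0 of the 18 passed, with 2 to 4 at an unadjusted p under 0.05, beside 6.63% to 20.3% of all genes in those comparisons. Zbtb16 passed in all 12 alternatives of the first comparison (limma adjusted p 0.000324 to 0.0271). In the second it passed in every alternative that kept more than 1 HS_AOS_FMT library (0.00066 to 0.0306). Fkbp5 did not pass in the first without HS 2, HS 3 or HS_control_FMT 1 (0.0566 to 0.0836), nor in the second without any 1 of the 6 libraries (0.0546 to 0.177). Adra2b did not pass without any 1 of the 6 (0.0562 to 0.103), and Nr3c1 not without HS_AOS_FMT 1 or 2 or HS_control_FMT 1 or 3 (0.0629 to 0.104). Without the 4 libraries with Cyp11b1 above 5 FPKM, Adra2b did not pass (0.0574). That setting left 1 HS_AOS_FMT library, so only effect sizes are given for the second comparison. The limma log2 was then 0.54 for Nr3c1, -0.77 for Fkbp5 and -1.70 for Zbtb16, beside 0.50, -0.61 and -1.44 with all libraries. Quantile normalization ended the calls of Nr3c1 (0.0605) and of Fkbp5 in the second comparison (0.0839), and that of Fkbp5 also ended with no filter (0.0749) or no trend (0.0534).

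Markers of other tissues were compared with the adrenal genes library by library, and their part in the levels was not tested. White fat genes (6 of 6 in the table) summed to 586 FPKM in HS 3, 214 in HS_AOS_FMT 2 and 166 in HS_AOS_FMT 3, but to 30.8 in control 3. By group the white fat sums were 30.8 to 265 in control, 24.1 to 312 in AOS, 5.93 to 586 in HS, 16.1 to 38.3 in HS_AOS, 34.9 to 214 in HS_AOS_FMT and 76.8 to 393 in HS_control_FMT. High fat sums also occurred without adrenal genes: HS_control_FMT 1 had 393 FPKM with a medulla sum of 0.08. Brown fat genes, 3 of 3 in the table and led by Ucp1, summed to 1.56 to 14.6 in control, 1.66 to 12.7 in AOS, 0.24 to 86.4 in HS, 1.45 to 21.2 in HS_AOS, 12.1 to 175 in HS_AOS_FMT and 24.1 to 199 in HS_control_FMT. Among the HS libraries HS 3 had the highest fat sums, and among the controls control 3 had the lowest.

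Gonads also make steroids, so their markers were examined. The gonad list (6 of 7 genes in the table) summed to 11.3 FPKM in control 3, of which Insl3 gave 10.1, and to 1.38 to 2.61 in the other 4 libraries with adrenal genes. By group it ran from 2.58 to 11.3 in control, 2.02 to 3.13 in AOS, 2.61 to 5.9 in HS, 0.87 to 4.82 in HS_AOS, 1.38 to 2.51 in HS_AOS_FMT and 2.89 to 4.83 in HS_control_FMT. Cyp17a1, which mouse gonads use and the mouse adrenal cortex lacks, reached 0.96 FPKM in control 3, and no other library passed 0.36. Lhcgr, the luteinizing hormone receptor, was listed at 0 in control 3, HS 3 and HS_AOS_FMT 1 and 2, and at 0.14 in HS_AOS_FMT 3, its highest library. Cyp19a1, aromatase, was listed at 0 in all 18 libraries. Germ cell genes (5 of 5 in the table) summed to 38.4 FPKM in control 3 and 27.1 in each of the other 2 controls, to 0 in AOS, HS, HS_AOS and HS_AOS_FMT, and to 0 to 0.47 in HS_control_FMT. Every germ cell marker was at 0 in HS 3 and HS_AOS_FMT. Insl3 of the gonad list was not, at 2.13 FPKM in HS 3 and 1.16, 1.52 and 1.92 in HS_AOS_FMT 1, 2 and 3. It was at 0.31 to 5.35 in the low libraries. Whether gonad cells had a part in the levels of the adrenal genes was not tested.

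**Figure D4:**
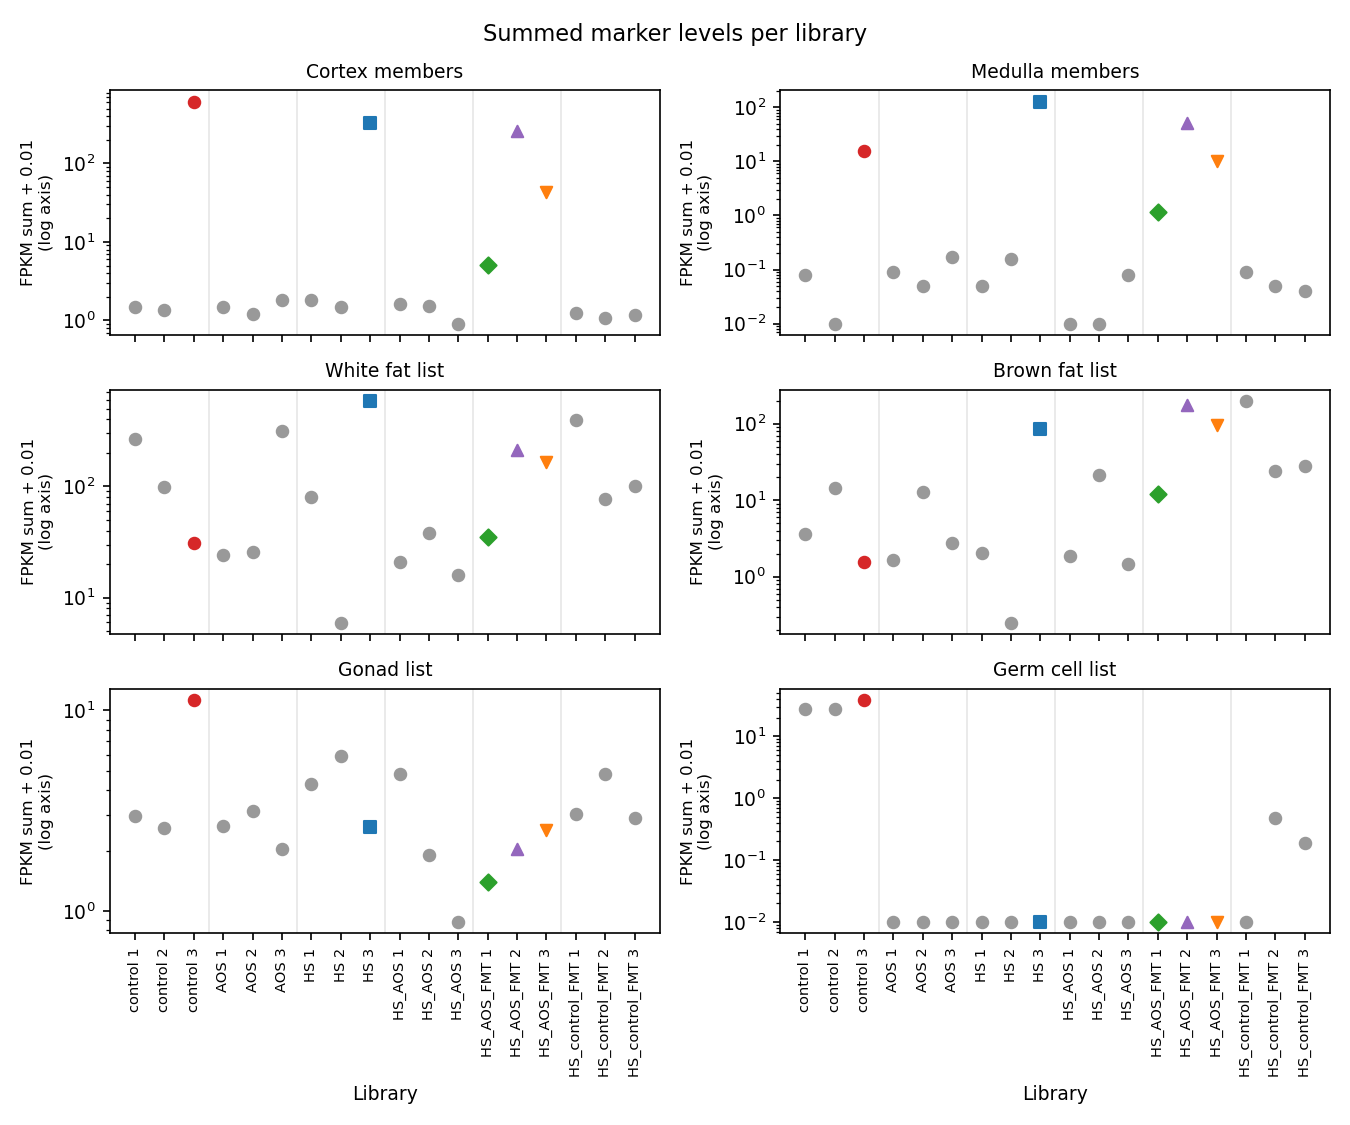
Summed FPKM + 0.01 (y axes, log axes) of the cortex genes, the medulla genes and the white fat, brown fat, gonad and germ cell lists in each of the 18 libraries (x axis); coloured points are the 5 libraries with a medulla sum of at least 1 FPKM. White fat reached 393 FPKM in HS_control_FMT 1, whose medulla sum was 0.08, and was 30.8 in control 3, whose cortex sum was 614.

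Liver genes (5 of 5) were highest in HS 3, at 63.5 FPKM, and lay at 8.22 to 15.7 in the other 4 libraries with adrenal genes and at 5.92 to 57.5 in the 13 low libraries. Erythroid genes (5 of 5) were also highest in HS 3, at 15529 FPKM, against 2611 to 4085 in those 4 and 2708 to 8341 in the 13. Control 3 had the highest sums of the distal (720 FPKM), principal (314), intercalated (92.6) and podocyte (86.4) lists of the kidney, against at most 515, 192, 55.1 and 68.2 in the other libraries. Control 3 also had the highest skeletal muscle (3.43) and pancreas (0.81) sums, while its lymphoid sum (1.58) lay within the 1.34 to 4.5 of the 13 low libraries. Urothelial genes (5 of 5) were at 36.9 FPKM in HS 3, 19.6 in HS_AOS_FMT 2 and 35.9 in HS_control_FMT 1, with 0.96 to 35.9 over the 13 low libraries. Markers of neurons, which share granule genes with the medulla, were at 2.84 FPKM in control 3, 5.5 in HS 3 and 2.02 to 4.38 in HS_AOS_FMT, within the 0.82 to 6.42 of the 13 low libraries.

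Some members lie near similar or overlapping genes. Cyp11b1 (chromosome 15, 74834892 to 74841643, GRCm38 in RefSeq) and Cyp11b2 (74850618 to 74856231) are neighbours, and their transcripts were 87.0% identical over 1539 aligned bases, so the division of reads between them is uncertain. Cyp11b1 relative to Cyp11b2 ran from 7.54 in HS 3 to 34.2 in control 3. Cyp11b1 also overlaps Gml2 on the opposite strand, which was listed at 0 in all libraries but control 2, at 0.11. Cyp21a1 (chromosome 17, 34801348 to 34804426) overlaps the pseudogene Tnxa on the opposite strand, and Cyp11a1 (chromosome 9, 57998024 to 58027031) overlaps the noncoding Gm17322 on its own strand. No source used here says whether the counting used strand. The remaining genes lie on chromosome 8 (Star, 25808474 to 25815982), chromosome 18 (Mc2r, 68406899 to 68429320), chromosome 7 (Th, 142892779 to 142899995), chromosome 2 (Dbh, 27165507 to 27183204, and Chgb, 132781642 to 132795079), chromosome 11 (Pnmt, 98386623 to 98388180) and chromosome 12 (Chga, 102554941 to 102565027).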

How the data were processed

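Total RNA of 18 kidney samples was sequenced. The deposited table gives FPKM per gene symbol, made by the authors and rounded to 2 decimals, in 19545 rows with no counts. Per the submitters' processing notes the build was mm10 and a tool was Bowtie 0.12.2. No source used here names the counting program or the annotation. The unit was read from the values: length-weighted sums varied by 0.930% between libraries and plain sums by 4.29%. A test on counts was therefore not run.

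Groups came from the labels. A single model of group means across the 18 samples was fitted with limma 3.58.1 (R 4.3.3, trend) on log2(FPKM + 1), which understates changes of low genes. Genes reaching 1 FPKM in 3 or more libraries were tested, and p-values were adjusted by Benjamini and Hochberg over all 12385. The fit was tested on simulated data. Members and lists were chosen with earlier results of these data known. Named genes are the members, list genes, and the 8 genes most like each layer's mean by Pearson r (at least 1 FPKM in 2 libraries, without predicted genes and pseudogenes).

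The labels number replicates 1 to 3 without saying what a number shares. In HS against control the deviations of same-numbered samples correlated at 0.188, 0.243 and 0.121, each above a minimum of 0.1. That comparison may therefore be paired, which these correlations cannot establish. The results given for it are without a replicate block, and the block gave 0 members called there too.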

Additional observations from a re-analysis of the deposited data

How the results depend on the processing

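In 72 alternative fits over the 6 comparisons, 0 of the adrenal genes passed in any, with 1 to 10 of them tested. The alternatives were the replicate block, quantile normalization, no filter, a pseudocount of 0.1, no trend, the 4 libraries with Cyp11b1 above 5 FPKM left out, and each replicate of the compared groups left out, where the 2 remaining samples are assumed to vary like the other groups. Leaving those 4 libraries out kept 1 library in HS_AOS_FMT, so the comparisons of that group are not read in that setting. Over all genes, the fits that are read called 0 to 245 in HS against control and 0 to 233 in AOS against control. Against HS they called 0 to 789 in HS_AOS, 0 to 176 in HS_AOS_FMT and 16 to 139 in HS_control_FMT. In HS_AOS_FMT against HS_control_FMT they called 65 to 518. The adrenal genes were selected on these levels, so nothing is read from their counts. With the replicate block the count of adrenal genes was 0 in every comparison. Same-numbered samples correlated at -0.229 to 0.312, and outside HS against control no comparison had all pairs above 0.1. The cortex to medulla ratio moved by over 1.5 times in the 5 libraries when Chga and Chgb were left out: 142 in control 3, 8.38 in HS 3, and 31.4, 27.1 and 20.9 in HS_AOS_FMT 1, 2 and 3. Control 3 then still had the highest and HS 3 the lowest ratio. Without Cyp11b1 the ratios ran from 2.24 to 32.0, as geometric means from 2.09 to 37.6, with other list genes added from 3.00 to 41.2, and without Star, an alternative chosen after seeing the data, from 2.17 to 31.5. The alternatives for Dab2, Zbtb16, Fkbp5, Adra2b and Nr3c1 were also chosen after seeing the data. Read depth is unknown, so the counting error of the lowest levels, such as those of HS_AOS_FMT 1, could not be estimated.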
